A study of Mus musculus with 6 samples.

Results

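The apoptosis and necroptosis machinery described here is a list of 38 genes, taken by gene symbol from a table of 45777 genes: members of the Bcl2 family, caspases, their inhibitors and the proteins that carry death signals from receptors to mitochondria, nuclease or membrane. Of the 38 members, 37 averaged 10 or more counts per library and were tested among 18328 genes. Hrk, a BH3-only gene, had 4 counts in Control, 2 in Dox and none in the other 4 libraries and was left out.

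RNA was sequenced from the hearts of female BALB/c nude mice (CAnN.Cg-Foxn1nu/Crl), 6 weeks old at the start of the study, that all carried a subcutaneous tumour of MDA-MB-231, a human breast cancer line. Doxorubicin (Dox), an anthracycline that damages the heart, was given at 2 mg/kg every other day to a cumulative 22 mg/kg, and ginsenoside Rh2, a ginseng saponin, was given daily at 20 or 30 mg/kg, over 3 weeks. The 6 conditions were Control (neither agent), Rh2-20, Rh2-30, Dox, Rh2-20+Dox and Rh2-30+Dox, and the libraries are called by these names. Each condition had 1 library made from 5 pooled hearts, so a single condition has no replicate, the differences between mice are averaged away, and every group lacks a thymus and carries a tumour.

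Cells can die by programmes that the Bcl2 family and the receptor-interacting kinases control. In the mitochondrial route, BH3-only proteins sense damage, Bax and Bak1 open the outer mitochondrial membrane unless Bcl2-like proteins hold them, cytochrome c is released to Apaf1, and caspases are activated. In the receptor route, Fadd and Casp8 start apoptosis, and where Casp8 is inactive, Ripk1, Ripk3 and Mlkl break the plasma membrane in necroptosis. Doxorubicin is known to engage both routes in cardiac muscle cells. RNA levels do not report cleaved caspases, phosphorylated kinases or proteins moved between compartments.

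The promoter windows of 4 members are shown: those of the 3 members with an unadjusted p under 0.05 for Dox whose Dox libraries all lay below the others (Casp8, Ripk1, Ripk3; Ripk1 has 2 listed starts), and that of a known target of low oxygen (Bnip3). The sequences are RefSeq, build GRCm38.p6, which has the coordinates of mm10, and run from 250 bases before to 50 bases after the listed start, 5′ to 3′ on the gene's strand. Capitals mark the core of the hypoxia element, ACGTG, and the core of the interferon element, GAAANNGAA, searched on both strands.
Casp8, chr1:58802252-58802551, plus strand: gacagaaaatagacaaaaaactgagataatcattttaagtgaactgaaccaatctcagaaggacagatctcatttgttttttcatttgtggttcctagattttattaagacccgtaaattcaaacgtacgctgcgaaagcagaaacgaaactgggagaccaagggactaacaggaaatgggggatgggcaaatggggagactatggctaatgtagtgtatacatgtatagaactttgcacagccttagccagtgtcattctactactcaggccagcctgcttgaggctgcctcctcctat
Ripk1, upstream start, chr13:34002113-34002412, plus strand: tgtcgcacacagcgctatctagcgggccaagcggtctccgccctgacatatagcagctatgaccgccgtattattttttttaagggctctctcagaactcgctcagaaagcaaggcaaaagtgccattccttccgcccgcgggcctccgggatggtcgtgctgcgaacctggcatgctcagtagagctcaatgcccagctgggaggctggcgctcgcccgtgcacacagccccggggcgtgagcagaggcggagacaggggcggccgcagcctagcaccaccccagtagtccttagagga
Ripk1, downstream start, chr13:34002624-34002923, plus strand: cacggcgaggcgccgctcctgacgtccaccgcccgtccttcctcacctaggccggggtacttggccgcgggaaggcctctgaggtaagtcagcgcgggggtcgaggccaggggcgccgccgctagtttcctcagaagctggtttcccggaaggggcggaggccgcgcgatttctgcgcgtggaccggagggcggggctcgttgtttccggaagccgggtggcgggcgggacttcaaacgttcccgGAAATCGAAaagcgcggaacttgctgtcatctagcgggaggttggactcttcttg
Ripk3, chr14:55788808-55789107, minus strand: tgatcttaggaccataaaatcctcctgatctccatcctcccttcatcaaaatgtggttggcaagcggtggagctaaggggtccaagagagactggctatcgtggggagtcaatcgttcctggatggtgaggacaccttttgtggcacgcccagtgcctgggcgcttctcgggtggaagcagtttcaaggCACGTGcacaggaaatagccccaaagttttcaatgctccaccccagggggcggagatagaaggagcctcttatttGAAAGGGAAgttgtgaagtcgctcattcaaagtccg
Bnip3, chr7:138909457-138909756, minus strand: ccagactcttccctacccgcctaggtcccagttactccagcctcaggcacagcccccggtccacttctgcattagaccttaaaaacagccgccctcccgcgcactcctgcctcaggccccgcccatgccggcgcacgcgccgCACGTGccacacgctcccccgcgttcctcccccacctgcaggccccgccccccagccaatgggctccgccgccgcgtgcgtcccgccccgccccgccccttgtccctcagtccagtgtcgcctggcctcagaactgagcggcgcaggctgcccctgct
Of the 38 members, 34 had a promoter in the table, with 46 windows in all, and Bik, Pmaip1, Bnip3l and Htra2 had none. ACGTG was present in 12 of the 46 windows (26.1%) against 19.6% of 32851 mouse promoters, and GAAANNGAA in 4 (8.7%; Cflar, Ripk1, Ripk3 and Xiap) against 8.56%. Neither share is a test, and a match is a description of letters and not of a bound site. In Bnip3 the capitals start 108 bases before the start, and in Ripk3 the hypoxia core starts 61 bases before it. The Casp8 window and the upstream Ripk1 window held neither of these 2 letter patterns. The Casp8 window lies inside the gene's span (chr1:58795233-58847503), so the first part of that span was not searched. Variants of the hypoxia core such as GCGTG, which the upstream Ripk1 window holds, were not searched either.

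The libraries held 86164411 to 90621002 counts. Cardiomyocyte markers such as Myh6 and Tnnt2 were high in every library, as the heart label requires. Markers of other cells differed between libraries. Atrial markers summed to 147029 in Rh2-30, 33490 in Dox and 35622 in Rh2-20+Dox. They summed to 4040, 5486 and 6658 in Control, Rh2-20 and Rh2-30+Dox. The brown-fat marker Ucp1 had 6010 normalized counts in Rh2-30 against 0 to 12.2 elsewhere. Markers of dividing cells summed to 4174, 2679 and 744 with Dox against 9634 to 12630 without. With 1 library per condition, these marker differences and the treatments cannot be told apart, and their part in the differences described here was not tested. In bulk tissue, fewer cells of a type and less RNA per cell cannot be told apart.

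Between genes, levels were compared by deposited FPKM, which scales fragments to transcript length and library size. The authors made the libraries with a SureSelect XT RNA Direct kit. FPKM does not correct for how well that kit recovers each gene, and its part in these levels was not tested. Cycs, cytochrome c, was the most abundant member with a mean of 107 (84.8 to 129) FPKM over the range of the 6 libraries. Bnip3l followed with 38.9 (21.6 to 66.6), Bnip3 with 28.2 (19.0 to 37.6), Aifm1 with 26.6 (21.2 to 32.4) and Bcl2l1 with 20.8 (13.1 to 27.5). These are proteins of the mitochondrion or its outer membrane, and their mean levels were above those of the receptor-route and BH3-only members. The Bcl2l1 range overlapped those of Cflar (10.4 to 16.6) and Casp8 (8.70 to 16.1). The death receptor Fas, which is not a member, had a mean of 28.1 (18.7 to 38.1) FPKM.

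Among pro-survival genes, Bcl2l1, which encodes Bcl-xL, and Mcl1 with 16.9 (14.6 to 19.3) FPKM stood far above Bcl2 with 1.42 (1.12 to 1.62) FPKM. The BH3-only genes Bmf, Bid, Bbc3 and Pmaip1 were the lowest tested members, down to 0.0525 (0.0279 to 0.0979) FPKM for Pmaip1. Of 36 neighbouring pairs in the order of means, only 3 had ranges that did not overlap (Cycs and Bnip3l, Bcl2l11 and Fadd, Bok and Bmf), so the order within the rest is not resolved by the 6 libraries.

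**Figure D1:**
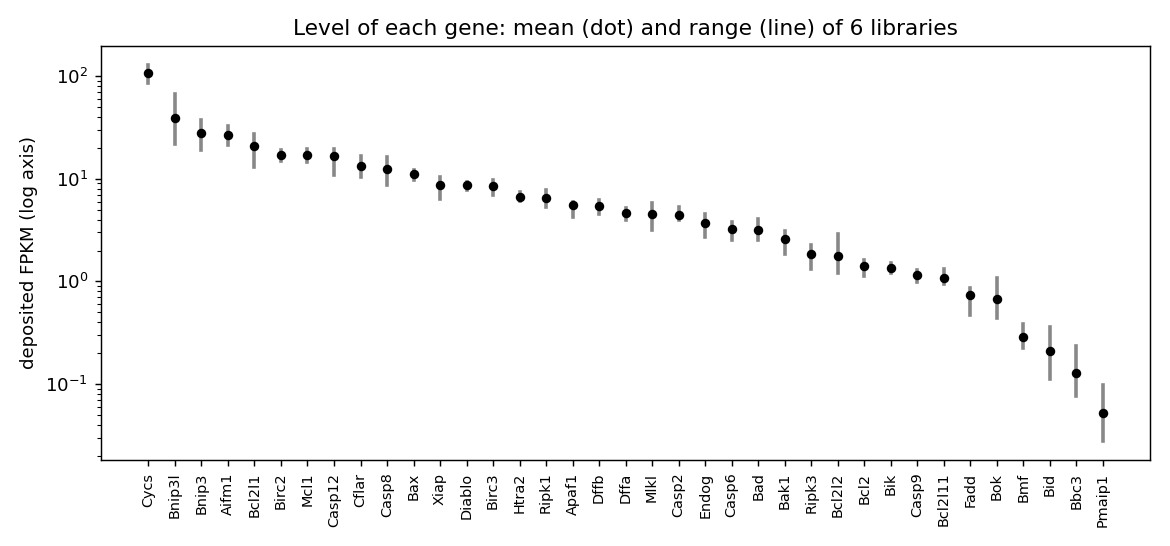
Deposited FPKM on a log axis for the 37 tested members, ordered by mean: dots are means of the 6 libraries and lines run from the lowest to the highest library. Cycs stands apart at the top, and Bmf, Bid, Bbc3 and Pmaip1 lie lowest.

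The first comparison asked what doxorubicin did to these genes: 3 libraries with Dox against 3 without, with the Rh2 dose balanced between the arms. Ripk1 and Ripk3, the kinases of necroptosis, and Casp8, their brake, were lower in all 3 Dox libraries than in all 3 without. No member passed an adjusted p of 0.05 in edgeR's quasi-likelihood test, where 5 of 18328 genes did (0.0273%). At an unadjusted p under 0.05 were 5 of 37 members (13.5%), against 10.1% of all genes: Ripk1, Casp8, Ripk3 and Xiap lower and Bnip3 higher. The Dox libraries were all above the others for 5 members (13.5%; Bmf, Casp2, Htra2, Birc2 and Dffa), against 7.85% of all genes, and all below for 6 (16.2%; Bcl2, Bak1, Casp8, Birc3, Ripk1 and Ripk3), against 9.16%. Each share exceeds that of all genes by few members, and no test of the list was made. On deposited FPKM, only Bmf and Dffa had all Dox libraries above the others, and Bad, Casp8, Ripk1 and Ripk3 all below. Bcl2, Bak1, Birc3, Casp2, Htra2 and Birc2 then overlapped. The share of all genes on FPKM was not counted. DESeq2's Wald test called 1 member (2.7%), Ripk1, at an adjusted p under 0.05, against 2.32% of all genes. With each library left out in turn, 2 to 4 members had an unadjusted p under 0.05 in edgeR, and Ripk1 was the only one to do so every time. Without Rh2-30, the library with the highest atrial and Ucp1 values, they were Casp8 and Ripk1. The share of all genes at that p was not counted in these fits, so these members cannot be set against it. An exact permutation test of 3 against 3 libraries cannot go below a two-sided p of 0.1, the value for each of these 11 members.

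The second comparison set the 4 libraries with Rh2 against the 2 without, with Dox as a term, where the 2 doses stand in for replicates. Bcl2l1, Bnip3 and Aifm1 were higher, and Mlkl, Casp8 and Bcl2l11 lower, at an unadjusted p under 0.05, which is 6 of 37 members (16.2%) against 8.74% of all genes. None passed the adjusted threshold in edgeR, nor did any of the 18328 genes (0%), while DESeq2's Wald test called 2 members (5.41%), Bcl2l1 and Bnip3, against 1.35% of all genes. With each library left out in turn, 3 to 7 members had an unadjusted p under 0.05 in edgeR, and only Bcl2l1 did so every time. Without Rh2-30 they were 6: Bcl2l1, Bnip3, Aifm1, Endog, Fadd and Mlkl. For these fits too, the share of all genes at that p was not counted. All 4 Rh2 libraries were above the 2 others for 4 members (10.8%; Bcl2l1, Diablo, Aifm1 and Fadd), against 9.87% of all genes, and below for 3 (8.11%; Bik, Bcl2l11 and Mlkl), against 9.08%.

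The third comparison, the interaction, asked whether the Dox effect differed with Rh2. It had 0 members and 0% of genes at an adjusted p under 0.05 in edgeR, and 0 members at an unadjusted p under 0.05 against 2.71% of all genes. DESeq2's Wald test also called 0 members, against 0.207% of all genes. With 2 residual degrees of freedom it could show large differences only, and the misses do not show that the Dox effect was alike.

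**Figure D2:**
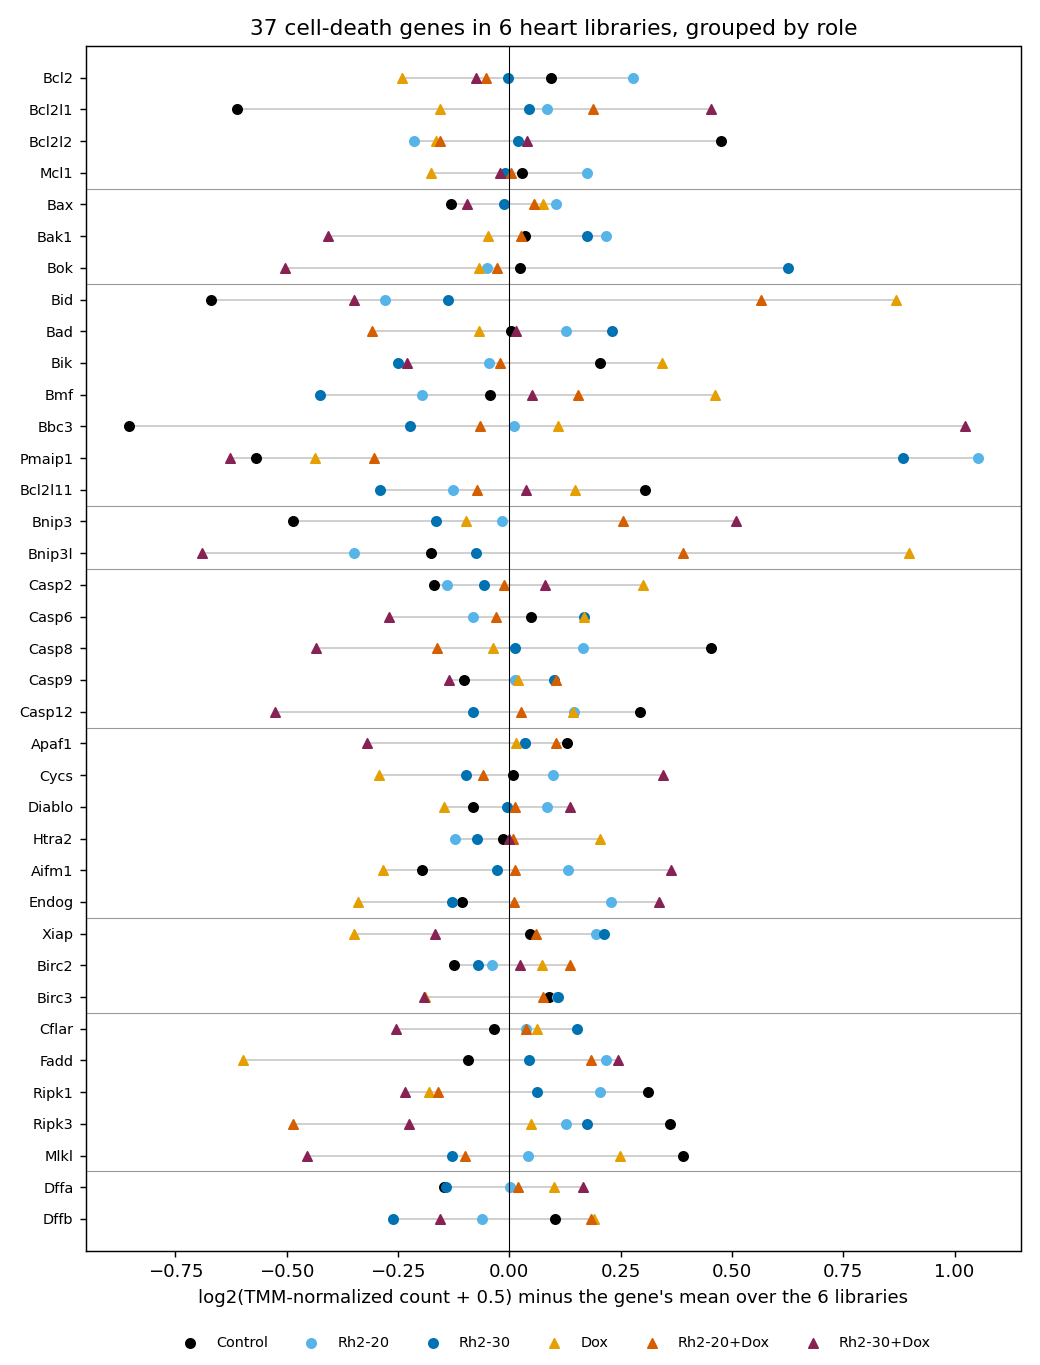
Every tested member (rows, grouped by role with lines between roles) in each library, as log2(TMM-normalized count + 0.5) minus the gene's mean over the 6 libraries. Circles are libraries without Dox and triangles libraries with Dox. Most members lie within 0.5 of their mean, and Bid, Bbc3, Pmaip1 and Bnip3l spread the widest.

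Counts below are scaled for library size and composition (TMM) and called normalized counts. The pro-survival proteins bind and restrain the pore formers. Bcl2l1 (chr2:152758732-152833803) had normalized counts of 4495 and 6161 in Control and Dox and 7281, 7076, 7823 and 9394 in Rh2-20, Rh2-30, Rh2-20+Dox and Rh2-30+Dox. All 4 libraries with Rh2 were above both without it, and within each Rh2 dose the Dox library was the higher. The Rh2 difference was 0.58 ± 0.11 (log2 ± SE), with an unadjusted p of 0.00184 and an adjusted p of 0.567 in edgeR. DESeq2's Wald test on the same counts gave an adjusted p of 0.00112, so the call depends on the tool. Rh2-30+Dox held 2.09 times the Control level, a log2 ratio of 1.06 (95% counting interval 1.01 to 1.12, wider interval 0.39 to 1.74). Here the counting interval covers reads only, and the wider one adds the common dispersion between the 6 libraries. With a dispersion that was not robust, the wider interval left out 0 only for Bid in Dox over Control, Pmaip1 in Rh2-20 over Control, Bbc3 in Rh2-30+Dox over Control and Bnip3l in Rh2-30+Dox over Dox.

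Bcl2 itself was lower with Dox. Its normalized counts were 701, 797 and 656 in the Control, Rh2-20 and Rh2-30 libraries and 556, 634 and 624 in the Dox, Rh2-20+Dox and Rh2-30+Dox libraries, so the Dox libraries lay below the others without overlap. Rh2-20+Dox (634) was close to Rh2-30 (656), and on deposited FPKM the arms overlapped. The Dox difference was -0.25 ± 0.12 on the log2 scale, with an adjusted p of 0.562 in edgeR. Mcl1, which has a short-lived protein, ranged from 5922 to 7549 normalized counts, and Bcl2l2, the Bcl-w gene, from 462 to 745 with its highest value in Control. In the GENCODE annotation, Bcl2l2 shares 594 exonic bases with the gene model Gm20521 on the same strand. Whether the counting used that model was not checked, so it is not known if reads were split between them. Bcl2 also overlaps an antisense gene.

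Bax and Bak1 form the pore in the outer mitochondrial membrane, and Bok is a related protein. Bax was among the steadiest members, from 1018 to 1199 normalized counts, with a Dox difference of 0.02 ± 0.11 on the log2 scale. Bak1 had 608, 691 and 669.8 without Dox, at Rh2 doses of 0, 20 and 30 mg/kg, and 575, 604 and 448 with Dox at the same doses. Its 3 Dox libraries lay below the 3 others, though Rh2-20+Dox (604) was close to Control (608), and on deposited FPKM the arms overlapped. Rh2-30+Dox was the lowest. The Dox difference was -0.28 ± 0.15 on the log2 scale, with an adjusted p of 0.576 in edgeR. Bok had 119 in Control, 113 in Rh2-20, 181 in Rh2-30, 112 in Dox, 115 in Rh2-20+Dox and 82.5 in Rh2-30+Dox. Only Rh2-30 stood clearly above the rest, and Rh2-30+Dox was the lowest, a log2 ratio of -1.13 (95% counting interval -1.53 to -0.75, wider interval -1.90 to -0.36) between those libraries.

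The ratio of raw Bcl2 to Bax counts, which needs no scaling between libraries, was 0.688, 0.664 and 0.592 in Control, Rh2-20 and Rh2-30. It was 0.472, 0.547 and 0.597 in Dox, Rh2-20+Dox and Rh2-30+Dox, where the 95% counting intervals ran from 0.425 to 0.524 in Dox, from 0.496 to 0.602 in Rh2-20+Dox and from 0.539 to 0.660 in Rh2-30+Dox. Dox alone had the lowest ratio, with an interval that overlapped that of Rh2-20+Dox and not that of Rh2-30+Dox, and the 30 mg/kg pair differed by less than its counting error. These intervals cover reads only, and no wider interval was computed for the ratios. With 1 library per condition, they do not show whether the conditions differ. For Bcl2l1 over Bax the ratio was 4.41 in Control, 5.24 in Dox, 6.07 in Rh2-20, 6.39 in Rh2-30, 6.74 in Rh2-20+Dox and 8.99 in Rh2-30+Dox. Every library with Rh2 exceeded both without it. In GENCODE, Bax shares 192 exonic bases with Gm45808 on the same strand. Whether the counting used that gene model was not checked, so the Bax counts could be affected in both ratios.

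The BH3-only proteins bind the pro-survival proteins or activate the pore formers. Bid, which Casp8 cleaves to link the receptor and mitochondrial routes, had normalized counts of 27.6 in Control, 36.3 in Rh2-20, 40.1 in Rh2-30, 81.0 in Dox, 65.6 in Rh2-20+Dox and 34.6 in Rh2-30+Dox. Dox and Rh2-20+Dox stood above the other 4, and Rh2-30+Dox lay among the libraries without Dox. Its raw counts were 26 in Control and 77 in Dox, a log2 ratio of 1.54 (95% counting interval 0.90 to 2.25, wider interval 0.60 to 2.47). Rh2-30+Dox over Dox was -1.22 (95% counting interval -1.85 to -0.63, wider interval -2.11 to -0.32). Bid overlaps 628 exonic bases of Bcl2l13 on the other strand, and the strand setting of the counting is not given in the sources used here, so its few reads are uncertain. Red-cell marker counts moved alongside Bid and are given with Bnip3l.

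Bmf, tied to loss of cell attachment, had normalized counts of 149.7, 135 and 115 without Dox, at Rh2 doses of 0, 20 and 30 mg/kg, and 213, 172 and 159.8 with Dox at the same doses. All 3 Dox values were above all 3 others, though Rh2-30+Dox (159.8) was close to Control (149.7). The Dox difference was 0.45 ± 0.21 on the log2 scale, with an adjusted p of 0.542 in edgeR. Bcl2l11, the gene of Bim, had 772 and 692 in Control and Dox and 572, 510.3, 594 and 641 in Rh2-20, Rh2-30, Rh2-20+Dox and Rh2-30+Dox. Both libraries without Rh2 were above the 4 with it, a difference of -0.34 ± 0.13 with an unadjusted p of 0.0446 and an adjusted p of 0.569 in edgeR. Bik ranged from 146 to 221 with the 4 Rh2 libraries also the lowest, and Bad, which growth-factor signalling restrains, from 361 to 524.

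Bbc3 and Pmaip1 encode Puma and Noxa, known targets of p53. Raw Bbc3 counts were 14 in Control, 28 in Rh2-20, 25 in Rh2-30, 28 in Dox, 27 in Rh2-20+Dox and 55 in Rh2-30+Dox. The combination at 30 mg/kg was the highest and Control the lowest, with a log2 ratio of 1.88 (95% counting interval 1.05 to 2.87, wider interval 0.79 to 2.96). Raw Pmaip1 counts were 9 in Control, 31 in Rh2-20, 29 in Rh2-30, 10 in Dox, 12 in Rh2-20+Dox and 9 in Rh2-30+Dox. The libraries with Rh2 alone stood above the other 4. Rh2-20 over Control was 1.62 (95% counting interval 0.57 to 2.93, wider interval 0.36 to 2.89) and Rh2-30 over Control 1.45 (95% counting interval 0.38 to 2.77, wider interval 0.18 to 2.73), on the log2 scale. At these depths both genes rest on 9 to 55 reads in each library.

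Bnip3 and Bnip3l are BH3-like proteins of the outer mitochondrial membrane that are known for mitophagy and for induction by low oxygen. Bnip3 (chr7:138890836-138909506) had normalized counts of 3977 in Control, 5506 in Rh2-20, 4969.7 in Rh2-30, 5208 in Dox, 6643 in Rh2-20+Dox and 7925 in Rh2-30+Dox. Control was the lowest and the combinations the highest, and at every Rh2 dose the Dox library exceeded its partner. The Dox difference was 0.45 ± 0.18 on the log2 scale (unadjusted p = 0.0407, adjusted p = 0.470 in edgeR), and the Rh2 difference 0.44 ± 0.10 (unadjusted p = 0.00601, adjusted p = 0.567). DESeq2's Wald test gave the Rh2 difference an adjusted p of 0.0418. Bnip3 shares 504 exonic bases with the antisense gene Gm45507, with which unstranded reads could not be told apart.

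Bnip3l, also called Nix (chr14:66985238-67008877), was not ordered like Bnip3 over the libraries. It had 11970.3 in Control, 10612 in Rh2-20, 12847 in Rh2-30, 25197 in Dox, 17733 in Rh2-20+Dox and 8387 in Rh2-30+Dox normalized counts. Dox was the highest, Rh2-20+Dox came next, and Rh2-30+Dox was the lowest of all 6. Dox over Control was 1.07 (95% counting interval 1.04 to 1.11, wider interval 0.40 to 1.75) and Rh2-30+Dox over Dox -1.59 (95% counting interval -1.62 to -1.55, wider interval -2.26 to -0.91) on the log2 scale, a level 3.00-fold lower. The interaction term was -0.92 ± 0.64 with an unadjusted p of 0.214 in edgeR.

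Bnip3l is also known for clearing mitochondria from maturing red cells. The summed level of 3 red-cell markers (Hbb-bs, Hba-a1 and Alas2) ran in the same order as Bnip3l at its ends: 605783 in Dox and 335026 in Rh2-20+Dox, against 199601 in Control, 181864 in Rh2-30, 144070 in Rh2-20 and 92966 in Rh2-30+Dox. None of the 3 markers was at 0 in any library. Red-cell genes spread more widely than Bnip3l: the raw Bnip3l to Alas2 ratio went from 0.369 in Dox to 1.77 in Rh2-30+Dox. Their part in the Bnip3l and Bid differences was not tested.

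**Figure D3:**
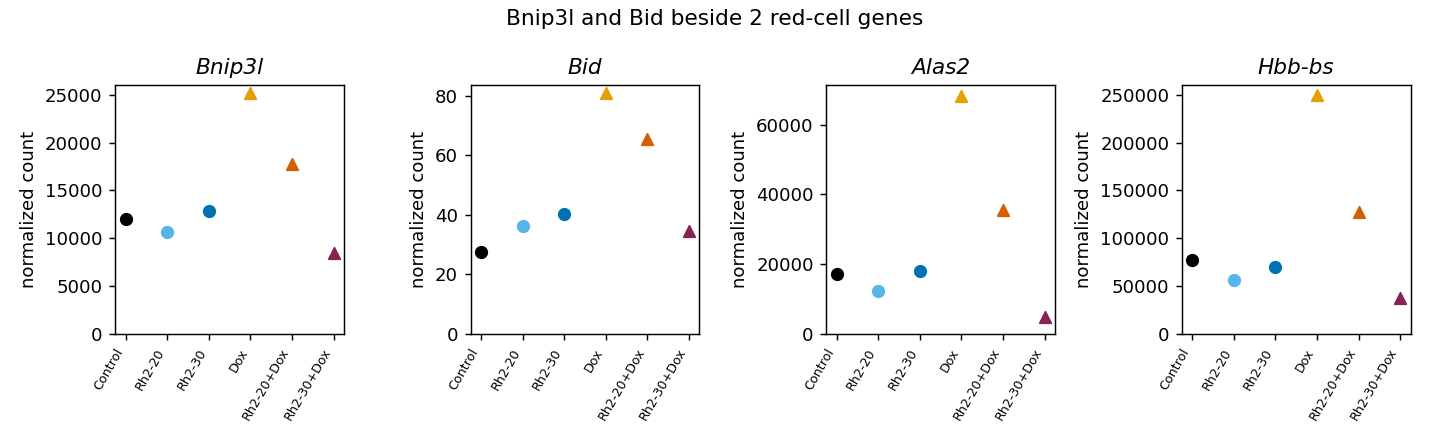
TMM-normalized counts (linear axes from 0) of Bnip3l and Bid and of the red-cell genes Alas2 and Hbb-bs in each library, with 1 point per library. In all 4 panels Dox is the highest and Rh2-20+Dox the second highest, and Rh2-30+Dox is the lowest except for Bid.

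Initiator caspases start the cascade and executioners carry it out. Casp8 (chr1:58795233-58847503), the initiator of the receptor route and the brake on necroptosis, had normalized counts of 4932 in Control, 4042 in Rh2-20, 3630.0 in Rh2-30, 3512 in Dox, 3216 in Rh2-20+Dox and 2666 in Rh2-30+Dox. Control was the highest and Rh2-30+Dox the lowest, and in both arms the counts were lower at each step of Rh2 dose. The 3 Dox libraries lay below the 3 others, a difference of -0.42 ± 0.15 on the log2 scale with an unadjusted p of 0.0248 and an adjusted p of 0.416 in edgeR. The Rh2 difference was -0.31 ± 0.11, with an unadjusted p of 0.0277 and an adjusted p of 0.567. With the Rh2 dose as a term, which compares libraries within a dose, the unadjusted p of the Dox difference was 0.00441 and the adjusted p 0.485 in edgeR. Rh2-30+Dox over Control was -0.89 (95% counting interval -0.96 to -0.82, wider interval -1.57 to -0.21) on the log2 scale, clear of 0 in this wider interval.

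Casp2, an initiator that responds to DNA damage and failed division, had 1344, 1371 and 1454 without Dox, at Rh2 doses of 0, 20 and 30 mg/kg, and 1862, 1499 and 1598 with Dox at the same doses. The Dox library was the highest, and all 3 Dox values were above the others, a difference of 0.25 ± 0.11 on the log2 scale with an adjusted p of 0.504 in edgeR. On deposited FPKM the arms overlapped. Casp9, the initiator that Apaf1 activates, ranged from 467 to 551 normalized counts. The executioner Casp6 ranged from 449 to 608. Casp12, which is bound to the endoplasmic reticulum, ranged from 3405 to 6007, lowest in Rh2-30+Dox, with lower counts in the Dox library at each Rh2 dose.

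Apaf1 builds the apoptosome with cytochrome c. Apaf1 ranged from 3296 to 4499 normalized counts and Cycs from 31408 to 48808, with Rh2-30+Dox lowest for Apaf1 and highest for Cycs. Aifm1, a mitochondrial flavoprotein that can act on nuclear DNA, had 5921 and 5569 in Control and Dox and 7426, 6656, 6839 and 8717 in Rh2-20, Rh2-30, Rh2-20+Dox and Rh2-30+Dox. Its 4 Rh2 libraries lay above the 2 others, a difference of 0.36 ± 0.13 on the log2 scale (unadjusted p = 0.0326, adjusted p = 0.568 in edgeR). Diablo, the Smac protein that displaces inhibitors from caspases, ranged from 1750.4 to 2128 with the Rh2 libraries the highest. Endog, a mitochondrial nuclease, ranged from 365 to 583.

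Htra2, a mitochondrial serine protease, had 1290.2, 1198 and 1239.9 without Dox, at Rh2 doses of 0, 20 and 30 mg/kg, and 1499.9, 1309.9 and 1302 with Dox at the same doses. The Dox values were above the others, though Rh2-20+Dox and Rh2-30+Dox exceeded Control by fewer than 20 counts. The difference was 0.14 ± 0.10 on the log2 scale, with an adjusted p of 0.680 in edgeR. On deposited FPKM the arms overlapped. Htra2 overlaps exons of Aup1 and Loxl3 on the other strand. Diablo overlaps those of B3gnt4 there and 1193 bases of Gm49027 on its own strand. Both counts could be affected, which was not tested.

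The inhibitors of apoptosis split by member. Xiap, which blocks caspases directly, had 7250.4, 8039 and 8137 without Dox, at Rh2 doses of 0, 20 and 30 mg/kg, and 5512, 7319 and 6249 with Dox at the same doses. Dox was the lowest and each Dox library was below its partner at the same Rh2 dose, but Rh2-20+Dox exceeded Control. The difference was -0.30 ± 0.12 on the log2 scale (unadjusted p = 0.0424, adjusted p = 0.472 in edgeR). Birc2 and Birc3 encode ubiquitin ligases that act on Ripk1 in the receptor complex. Birc2 had 6975, 7393 and 7239.5 without Dox, at Rh2 doses of 0, 20 and 30 mg/kg, and 7995, 8353 and 7729 with Dox at the same doses, with all Dox libraries above the others by a difference of 0.16 ± 0.08. Birc3 had 3065, 3106 and 3108 without Dox, at Rh2 doses of 0, 20 and 30 mg/kg, and 2529, 3039 and 2522 with Dox at the same doses, with all Dox libraries below the others by -0.20 ± 0.10. Neighbouring genes on chromosome 9, they lay on opposite sides, with adjusted p of 0.552 and 0.562 in edgeR. For Birc3, Rh2-20+Dox (3039) was close to Control (3065), and on deposited FPKM the arms overlapped for both genes.

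Ripk1, the kinase that decides between survival and death at the receptor complex, had the smallest Dox p of the members in the fit without Rh2 dose. With the Rh2 dose as a term, its unadjusted p was 0.0072 and its adjusted p 0.502 in edgeR, and the unadjusted p of Casp8 was smaller. Ripk1 (chr13:34002225-34035170) had normalized counts of 4438, 4120.1 and 3734 without Dox, at Rh2 doses of 0, 20 and 30 mg/kg, and 3153, 3198 and 3039 with Dox at the same doses. The 3 Dox values lay close together and all below the 3 others. The difference was -0.39 ± 0.09 on the log2 scale, with an unadjusted p of 0.00354 and an adjusted p of 0.287 in edgeR, and DESeq2's Wald test gave an adjusted p of 0.0261. Its ratios of Dox over without at Rh2 doses of 0, 20 and 30 mg/kg were -0.49, -0.37 and -0.30 on the log2 scale. Ripk1 shares 241 exonic bases with Serpinb6a on the other strand and 511 with a processed pseudogene.

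Ripk3 (chr14:55784995-55788857), the kinase that phosphorylates Mlkl, had 512, 435 and 449.7 without Dox, at Rh2 doses of 0, 20 and 30 mg/kg, and 413, 285 and 341 with Dox at the same doses. All Dox values were below all the others, and Rh2-20+Dox was the lowest. The difference was -0.43 ± 0.17 on the log2 scale (unadjusted p = 0.0440, adjusted p = 0.479 in edgeR). Mlkl (chr8:111311255-111338479), the protein that permeabilises the membrane, had 1539.7 and 1397 in Control and Dox and 1209, 1075, 1098 and 858 in Rh2-20, Rh2-30, Rh2-20+Dox and Rh2-30+Dox. Both libraries without Rh2 were above the 4 with it. The Rh2 difference was -0.47 ± 0.13 (unadjusted p = 0.0115, adjusted p = 0.567 in edgeR), and the Dox difference -0.19 ± 0.21 (unadjusted p = 0.394). The test of whether the Rh2 effects on Mlkl and Ripk3 differ from each other was not made.

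Fadd, the adaptor that brings Casp8 to death receptors, ranged from 160.0 to 287 normalized counts, lowest in Dox. Rh2-20+Dox over Dox was 0.78 (95% counting interval 0.49 to 1.08, wider interval 0.05 to 1.51) and Rh2-30+Dox over Dox 0.84 (95% counting interval 0.55 to 1.14, wider interval 0.11 to 1.57) on the log2 scale. Both wider intervals lay above 0, and no p can be given for a pair of single libraries. Cflar, the inactive Casp8 relative that holds it in check, ranged from 5773 to 7656. Summed macrophage markers, whose cells also express these genes, were 22938 in Control, 30031 in Rh2-20, 33098 in Rh2-30, 17949 in Dox, 26315 in Rh2-20+Dox and 16298 in Rh2-30+Dox. Of the 5 macrophage markers (Adgre1, Csf1r, Cd68, C1qa and Mrc1) none was at 0, and the Dox libraries were all below the others for 1. At each Rh2 dose the Dox library was the lower for the sum and for Adgre1, Csf1r, C1qa and Mrc1. Cd68 did not share this, with 654 in Control and 664 in Dox. Their part in the Casp8, Ripk1, Ripk3 and Mlkl differences was not tested.

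**Figure D4:**
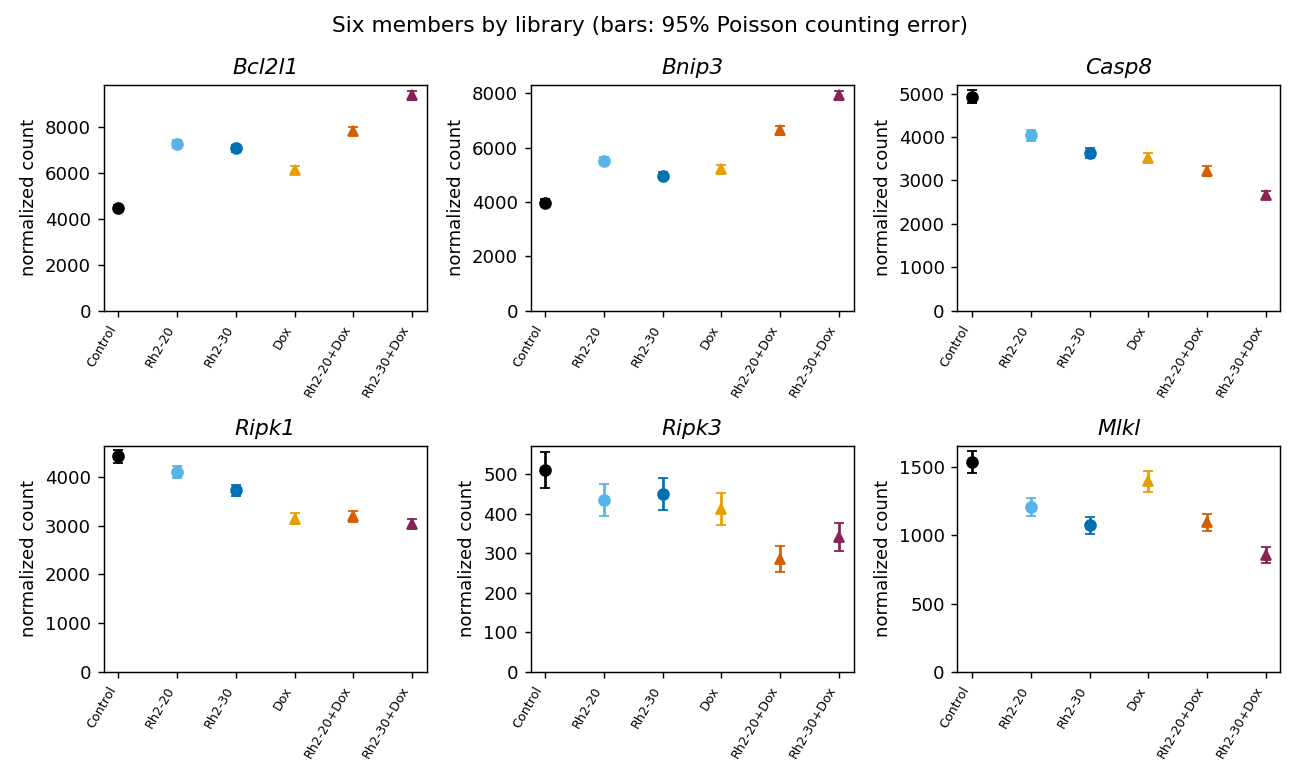
TMM-normalized counts (linear axes from 0) of 6 members, 1 point per library, with bars for the 95% Poisson counting error of that library's reads. Bcl2l1 and Bnip3 are lowest in Control and highest in Rh2-30+Dox, Casp8 and Mlkl are highest in Control and lowest in Rh2-30+Dox, and the 3 Dox libraries are the lowest for Ripk1 and Ripk3.

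Dffb encodes the nuclease that cuts chromatin between nucleosomes, and Dffa its inhibitor and chaperone. Dffa had 715, 793 and 717 without Dox, at Rh2 doses of 0, 20 and 30 mg/kg, and 848, 802 and 888 with Dox at the same doses. The Dox values were above the others, by 0.19 ± 0.10 on the log2 scale, with an adjusted p of 0.586 in edgeR. Rh2-20+Dox (802) was close to Rh2-20 (793). Dffb ranged from 1281 to 1751, higher in the Dox library at each Rh2 dose.

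Set side by side at the 3 Rh2 doses, the ratio of Dox over its partner was above 0 on the log2 scale in all 3 pairs for 9 members (24.3%), against 15.9% of all genes. It was below 0 in all 3 for 11 members (29.7%), against 17.6%. The higher members were Bcl2l1, Bik, Bmf, Bnip3, Casp2, Htra2, Birc2, Dffa and Dffb, and the lower were Bcl2, Mcl1, Bak1, Bad, Casp8, Casp12, Xiap, Birc3, Ripk1, Ripk3 and Mlkl. Pro-survival and death-promoting genes stood on both sides.

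**Figure D5:**
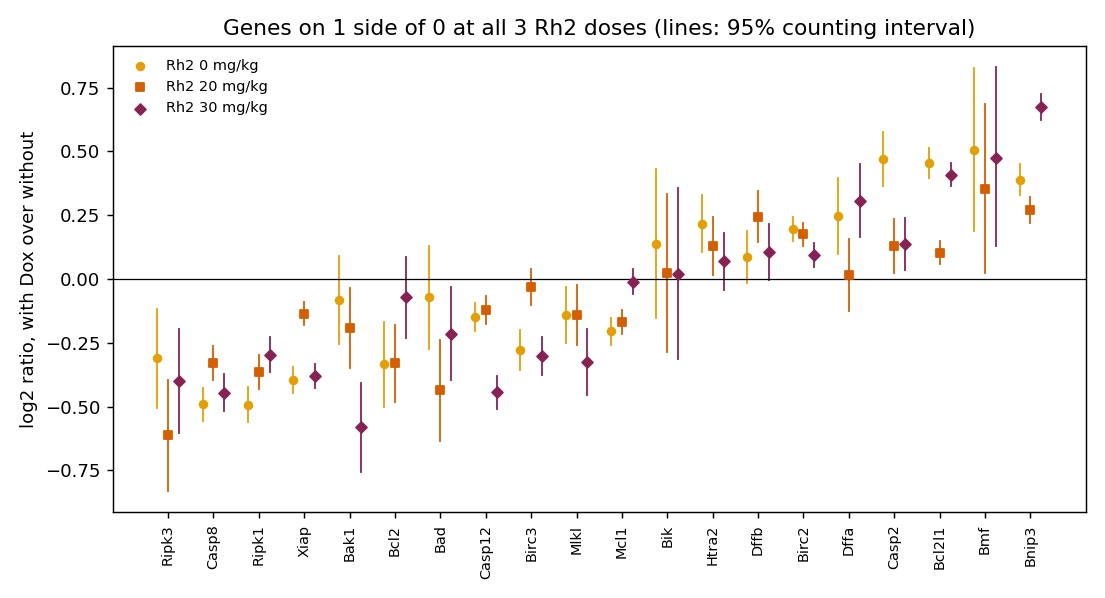
Log2 ratio of the library with Dox over the library without it at Rh2 doses of 0, 20 and 30 mg/kg, for the 20 members on the same side of 0 in all 3 pairs, ordered by their mean ratio; lines are 95% counting intervals. Ripk3, Casp8 and Ripk1 lie lowest, and Bnip3 and Bmf lie highest with nearly equal means.

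Of single libraries, few members were 2-fold apart, with no replicate to test them. Dox over Control had Bid and Bnip3l higher, 2 of 37 members, against 9.01% of all genes past 2-fold in either direction. Rh2-20 over Control had Pmaip1 alone, against 6.14%, and so did Rh2-30 over Control, against 10.1%. In Rh2-20+Dox over Control the member was Bid, against 8.75%, and in Rh2-30+Dox over Control they were Bcl2l1 and Bbc3, against 10.9%.

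With Rh2 added to Dox, no member was 2-fold apart at 20 mg/kg, against 6.51% of genes, and 2 were at 30 mg/kg, Bid and Bnip3l, both lower, against 10.1%. With Dox added to Rh2, Pmaip1 was lower at 20 mg/kg, against 6.96%, and at 30 mg/kg Bok and Pmaip1 were lower and Bbc3 higher, against 14.6%. In all 9 pairs the share of members past 2-fold was below that of all genes. The median log2 ratio over members lay between -0.15 in Rh2-30+Dox over Dox and 0.08 in Rh2-20 over Control.

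Other genes of the pathway were read from a separate list of 37, of which 36 were tested. Fasl, the Fas ligand, had 0 to 9 counts in each library and was not. None passed an adjusted p of 0.05 in edgeR in any of the 3 tests. DESeq2's Wald test called 1 of the 36 for Dox, Fas, against 2.32% of all genes. It called 1 of the 36 for Rh2, Zbp1, against 1.35%. In the Dox test 5 of the 36 had an unadjusted p under 0.05, against 10.1% of all genes: Fas higher, and Parp1, Tnfaip3, Birc5 and Naip2 lower. Fas, the death receptor that is a p53 target, had normalized counts of 3314, 4129 and 3618 without Dox, at Rh2 doses of 0, 20 and 30 mg/kg, and 4927, 6411 and 6524 with Dox at the same doses. Every Dox library was above every other, a difference of 0.69 ± 0.14 on the log2 scale (unadjusted p = 0.00154, adjusted p = 0.216 in edgeR). The receptor was thus higher in the same libraries in which Casp8 and Ripk1, downstream of it, were lower. Birc5, survivin, which dividing cells make, differed by -1.10 ± 0.31, and Tnfaip3, the A20 ubiquitin editor, by -0.50 ± 0.15. Parp1, a DNA-break sensor that caspases cut, differed by -0.24 ± 0.10, and Naip2, an inflammasome receptor, by -0.36 ± 0.14.

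In the Rh2 test 7 of the 36 had an unadjusted p under 0.05, against 8.74% of all genes: Fas, Tnfrsf1a, Vdac3 and Bag1 higher, and Tnfsf10, Rnf31 and Zbp1 lower. Zbp1, a nucleic-acid sensor that can start necroptosis through Ripk3, had 482 and 705 in Control and Dox and 266, 320.0, 309 and 178 in Rh2-20, Rh2-30, Rh2-20+Dox and Rh2-30+Dox. Both libraries without Rh2 were above the 4 with it, as for Mlkl, with a difference of -1.14 ± 0.29 on the log2 scale (unadjusted p = 0.00864, adjusted p = 0.567 in edgeR). Tnfsf10, the ligand Trail, differed by -0.71 ± 0.20, and Tnfrsf1a, the main receptor of tumour necrosis factor, by 0.30 ± 0.09. In Rh2-30+Dox over Control 6 of the 36 were 2-fold or more apart, against 10.9% of all genes, among them Tnfrsf10b, Zbp1, Bcl2a1b, Bcl2a1d and Birc5, each lower.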

How the data were processed

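The 38 members and the lists were chosen with earlier results of these data known. The authors trimmed reads with Trimmomatic, aligned them to mm10 with HISAT2 2.1.0 and quantified genes with StringTie 2.1.3b (names from the submitters' processing notes; bcl2fastq 2.20.0 made the reads); library strand handling is not given in the sources used here. The deposited read count values are whole numbers per gene with no normalization. The deposited FPKM values are scaled by the authors to transcript length and mapped fragments. Deposited TPM values were not used. The values of 1 gene of the pathway list are not reported here.

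Each library held 86164411 to 90621002 counts, so counting error is small for most genes and the lack of replicates is the limit. Samples were grouped by title, with 1 library per condition. Genes averaging 10 or more counts were TMM-scaled and tested by edgeR 4.0.16 quasi-likelihood F tests (R 4.3.3) for Dox, Rh2 with Dox as a term, and their interaction, with Benjamini-Hochberg adjustment over 18328 genes. P-values measure the spread between conditions treated as replicates, since no condition had 2 libraries. Pairs of single libraries were not tested: log2 ratios used a prior count of 0.5, exact 95% counting intervals that cover counting error only, and a wider interval with the robust common dispersion 0.0285. Alternatives were DESeq2 1.42.0, limma 3.58.1 on log2(FPKM + 1), other scaling, filters and covariates, and leaving out each library. Tests and intervals were checked on simulated counts with a single dispersion for all genes and no true difference between conditions treated as replicates. That check does not cover the spread between conditions in these data. Every member was described by role, with values in all libraries for those 2-fold apart in a pair, not overlapping between Dox arms or at an unadjusted p under 0.05, and the others by range. Coordinates and promoters came from RefSeq GRCm38.p6, matched by NCBI Gene ID and symbol, and plots were drawn with matplotlib 3.10.9. Exon overlaps came from GENCODE, and whether the counting annotation held the overlapping genes was not checked.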

Additional observations from a re-analysis of the deposited data

How the results depend on the processing

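The fit with the Rh2 dose as a term, which pairs libraries by dose, called 0 members, as without it, and took the Cycs Dox difference from 0.02 to -0.01 on the log2 scale. DESeq2's Wald test called 1 member for Dox (Ripk1) and 2 for Rh2 (Bcl2l1 and Bnip3) where edgeR called 0, and 423, 247 and 38 genes in all for Dox, Rh2 and their interaction; the cause was not tested. Of the members with an unadjusted p under 0.05 or 2-fold apart, none changed direction under any alternative run. Leaving out 1 library left 0 members past the adjusted threshold in all 3 tests (for the interaction, only the 4 Rh2 libraries could be left out), while members at an unadjusted p under 0.05 ran from 2 to 4 for Dox and from 3 to 7 for Rh2, and genes called for Dox from 0 to 14, the highest without Rh2-30+Dox. For Dox the 5 members became 3 without Control (Pmaip1, Xiap and Ripk1), 3 without Rh2-20 (Bnip3, Casp8 and Ripk1), 2 without Rh2-30 (Casp8 and Ripk1) and 3 without Rh2-30+Dox (Bid, Bnip3l and Ripk1). They became 4 without the Dox library (Bnip3, Casp8, Ripk1 and Ripk3) and 4 without Rh2-20+Dox (Casp2, Xiap, Birc3 and Ripk1). For Rh2 the 6 became 3 without Control (Bcl2l1, Bnip3 and Fadd) and 3 without Dox (Bcl2l1, Bcl2l2 and Bcl2l11). For the interaction the 0 became 1 without Rh2-20+Dox (Bnip3l) and 1 by limma (Bcl2l2). Deposited FPKM left 2 members (Bmf and Dffa) with all Dox libraries above the others, where normalized counts gave 5. It left 4 (Bad, Casp8, Ripk1 and Ripk3) with all below, where normalized counts gave 6. Shares of all genes were not counted on FPKM, nor at an unadjusted p under 0.05 with a library left out.

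Counts of members 2-fold apart fell on log2(FPKM + 1), which shrinks low genes: 1 (Bnip3l) for Dox over Control, 0 for Rh2-20, Rh2-30 and Rh2-20+Dox over Control, 1 (Bcl2l1) for Rh2-30+Dox over Control, 1 (Bnip3l) for Rh2-30+Dox over Dox, and 0 for both Dox over Rh2 pairs. On log2(FPKM + 0.1) they were 1 for Rh2-20 over Control (Bcl2l2 in place of Pmaip1), 0 for Rh2-30 and Rh2-20+Dox over Control, 1 for Rh2-30+Dox over Control, 1 for Rh2-30+Dox over Dox, 0 for Rh2-20+Dox over Rh2-20 and 1 (Bok) for Rh2-30+Dox over Rh2-30. The share of all genes past 2-fold was not counted on either FPKM scale, so these member counts cannot be set against it. The dispersion alone put 0.67 to either side of a log2 ratio, before counting error, 0.64 with Dox as a term and 1.18 with a dispersion that was not robust, an estimate chosen after seeing the data. With 1 library per condition, neither mouse-to-mouse spread nor dissection can be separated from treatment.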
